A study of Homo sapiens with 8 samples.

Results

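BMP ligands and the secreted antagonists that bind them were examined in mesendoderm-induced H9 cells with and without EXT1. H9 is an established human embryonic stem cell line. The EXT1-/- group (4 libraries) came from H9 cells in which the EXT1 locus had been targeted with CRISPR/Cas9, and the wild type (WT) group (4 libraries) from wild type H9 cells. EXT1 encodes a glycosyltransferase that builds the heparan sulfate chain, and the labels describe the knockout cells as lacking heparan sulfate. Cells of both genotypes had been kept in E8 medium on vitronectin and were collected after 28 h in RPMI-1640 with 6 µM CHIR-99021, an inhibitor of the kinase GSK3 that activates β-catenin signalling. One EXT1-/- line stands for the genotype, uninduced cells were not analysed here, and separate cultures are not stated for the replicates. The p-values therefore speak of the scatter among these libraries, which may be technical. The genes were chosen by symbol from a list of 10, BMP2, BMP4, BMP5, BMP6, BMP7, GDF3, GREM1, NOG, CHRD and BMPER. Of these 10 genes, 7 had a row among the 15811 genes used, and the antagonist genes NOG and CHRD and the modulator gene BMPER were not analysed here.

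Bone morphogenetic proteins (BMPs) are secreted dimers of the TGF-β superfamily that bring together type I and type II receptor kinases, which phosphorylate SMAD1, SMAD5 and SMAD9. Antagonists such as noggin, chordin and gremlin bind the ligands outside the cell and keep them from their receptors, and several ligands and antagonists also bind heparan sulfate. In the early mammalian embryo BMP4 takes part in inducing the primitive streak, and its dose later helps to set the choice between mesoderm, surface ectoderm and neural tissue.

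The values are normalised read counts, and in each library they summed to between 37737058 and 40017763, so that 1 CPM (the count scaled to a common library total) is about 38.9 of them. The table holds genes that reached about 1 CPM in at least 2 libraries. The libraries formed 2 sets without a counterpart in the labels. Mitochondrial transcripts took 9.18 to 10.7% of the counts in EXT1-/- replicates 1 and 4 and WT replicate 1 (the high set), and 5.30 to 5.43% in the other 5 libraries (the low set). EXT1 itself, read as a check of the labels, averaged 919.8 ± 41.6 in EXT1-/- cells and 1562 ± 144 in WT cells (SD, n = 4 each), so its transcript was lower but present. All 9 measured genes of a list of 10 mesendoderm markers were detected in every library. Their summed count was 19287 to 35430 in EXT1-/- libraries and 36451 to 40407 in WT libraries. Of the 9, 6 were lower and 2, FGF17 and SP5, higher (limma). SP5 was the largest part of the sum in each EXT1-/- library, at 6539 to 15484 there and 3979 to 5628 in WT libraries. The 6 measured of 11 neural plate border and neural crest markers summed to 8017 to 17664 in EXT1-/- libraries and 930 to 1108 in WT libraries. MSX1, at 3974 to 10856 in EXT1-/- libraries and 390 to 536 in WT libraries, was the largest part of that sum. Of the 6, 5 were higher and 1, SOX9, lower (limma). The higher gene DLX5 was below 1 CPM in every WT library and could enter the table only through the EXT1-/- libraries. PAX7, FOXD3, SOX10, TFAP2B and DLX6 were not analysed here. The 8 measured of 12 amnion and trophectoderm markers summed to 4253 to 7061 in EXT1-/- libraries and 3720 to 3991 in WT libraries, and HAND1 was at 0 in 2 WT libraries. CDX2, at 3389 to 5871 in EXT1-/- libraries and 3207 to 3552 in WT libraries, made up most of that sum. It did not pass the test, while 4 of the 8 were higher and 2, GABRP and IGFBP3, lower (limma). The higher genes TFAP2A, HAND1 and TBX3 were below 1 CPM in every WT library. They could enter the table only through the EXT1-/- libraries. The 8 pluripotency markers summed to 126873 to 140120 in EXT1-/- libraries and 177722 to 183444 in WT libraries (2 higher, 5 lower). The 3 measured of 8 lateral mesoderm markers summed to 2285 to 3004 in EXT1-/- libraries and 10177 to 11050 in WT libraries. Most of it was KDR, which was lower, while GATA4 and HAND1 were higher (limma). The 3 measured of 8 neuroectoderm markers summed to 342 to 599 in EXT1-/- libraries and 128 to 180 in WT libraries. OTX2, most of the WT sum, was lower, and POU3F2 and OTX1 were higher (limma). POU3F2 and OTX1 were below 1 CPM in every WT library and could enter the table only through the EXT1-/- libraries. The part these shifts have in the values below was not tested, and in bulk RNA fewer cells of a type and less RNA per cell cannot be told apart.

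Transcripts of 4 BMP ligands and of the antagonist GREM1 were higher in EXT1-/- cells than in WT cells. BMP4, BMP5 and BMP6 were 3.47 to 3.92-fold higher, BMP7 1.55-fold higher and GREM1 11.2-fold higher. BMP2 pointed the other way without passing the test, and GDF3 had nearly the same mean in both groups. In all, 5 of the 7 measured genes were higher and none was lower at an adjusted p below 0.05. The test was limma with Benjamini-Hochberg adjustment over all genes, and voom weights gave the same counts. At an unadjusted p below 0.05, 1 was lower, BMP2 (limma). Over all 15811 genes 32.0% were called, 15.2% as higher and 16.8% as lower. BMP5, BMP6 and GREM1 stayed below 1 CPM in every WT library and could enter the table only through the EXT1-/- libraries, so their being higher was built into the selection. Of the 4 genes above 1 CPM in every WT library, BMP4 and BMP7 were higher, and BMP2 and GDF3 did not pass.

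**Figure D1:**
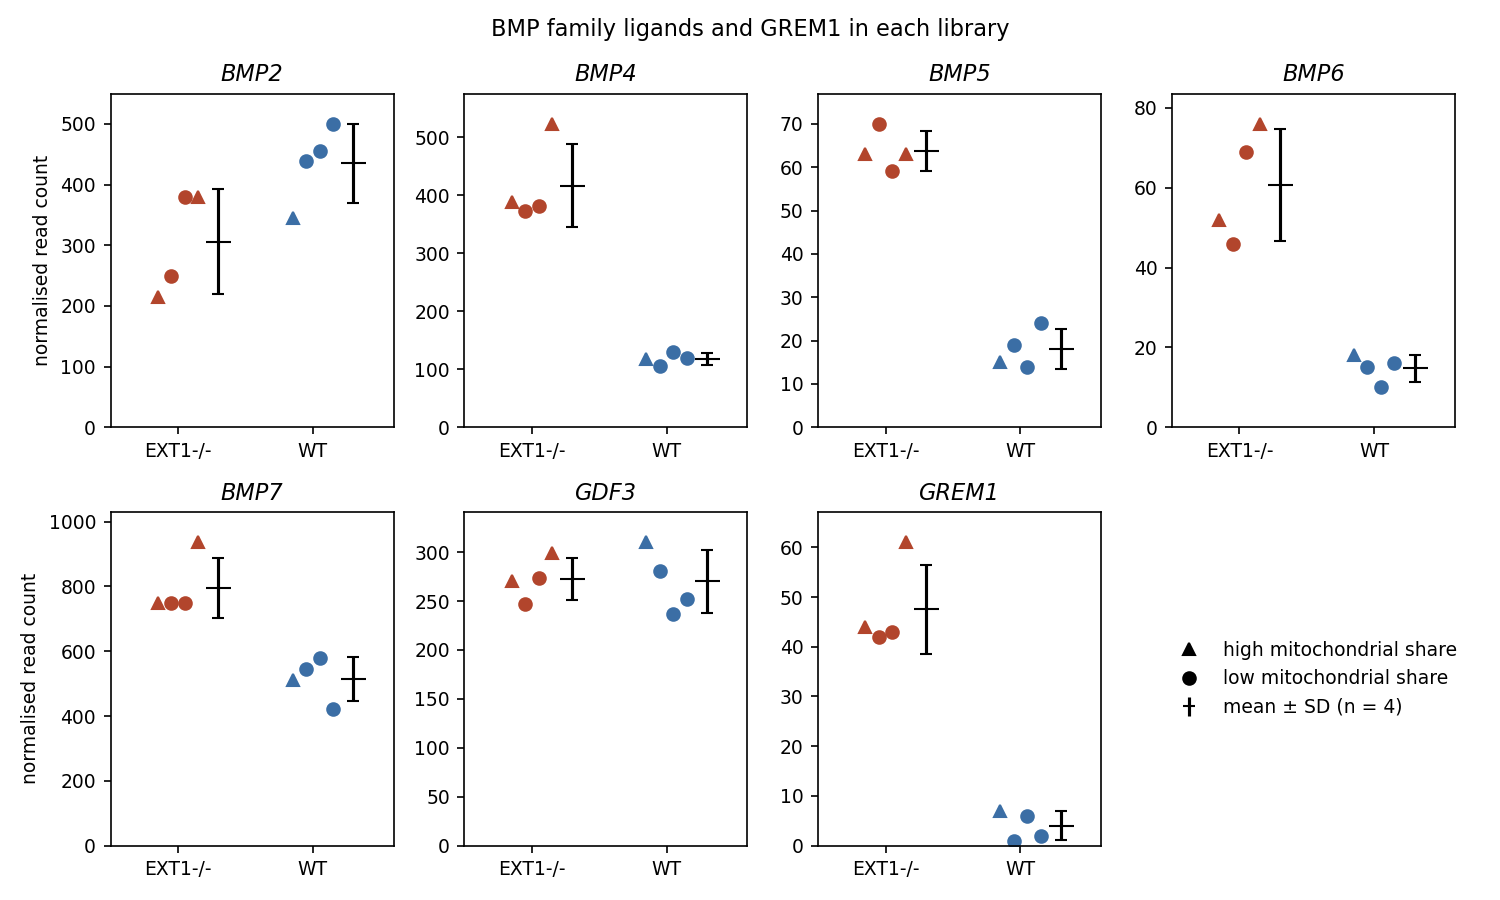
Normalised read count (linear axis from 0) of each measured gene in the 4 EXT1-/- and 4 WT libraries. Triangles are libraries of the high mitochondrial set, circles those of the low set, and the black bars the mean ± SD; BMP4 lies between 372 and 523 in EXT1-/- cells and between 105 and 129 in WT cells, whereas the groups of BMP2 and GDF3 overlap.

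BMP4 and BMP2 are close relatives that signal through the same receptors. The BMP4 gene (ENSG00000125378) occupies 53949736 to 53958761 of chromosome 14, minus strand (GRCh38, GENCODE 29). Its normalised count was 389, 372, 381 and 523 in EXT1-/- replicates 1 to 4, and 117, 105, 129 and 120 in WT replicates 1 to 4. Every EXT1-/- library lay far above every WT library, with replicate 4 the highest. The means were 416.2 ± 71.5 in EXT1-/- cells and 117.8 ± 9.91 in WT cells (SD, n = 4 each), and the log2 fold change was 1.80 ± 0.13 (SE; limma adjusted p 1.31e-05). Over the 70 ways to divide 8 libraries, the two-sided exact permutation p was 0.0286, the smallest possible for 4 against 4. On the log2 scale the low set alone gave 1.67 and the high set alone 1.94. Without EXT1-/- replicate 4 it was 1.69, so the difference did not rest on that library.

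The promoter of BMP4 is shown because BMP4 had the lowest adjusted p among the ligands. The stretch is the 250 bases before the most upstream of 3 BMP4 starts in RefSeq (GRCh38.p14, chr14:53955051-53955300, minus strand). Capitals mark any match, on either strand, to GGCGCC, a GC-rich element to which SMAD1 and SMAD5 bind, to CAGAC (reverse complement GTCTG), the SMAD box, or to CTTTGA (reverse complement TCAAAG), the core of the TCF/LEF motif through which β-catenin acts. None of the matches overlapped a match to another motif.
BMP4: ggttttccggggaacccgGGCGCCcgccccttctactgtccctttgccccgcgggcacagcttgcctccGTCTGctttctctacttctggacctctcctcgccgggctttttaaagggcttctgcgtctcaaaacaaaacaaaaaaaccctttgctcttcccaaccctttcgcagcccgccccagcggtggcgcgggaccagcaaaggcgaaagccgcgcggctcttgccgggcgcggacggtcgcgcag
The window held 1 GGCGCC and 1 SMAD box and no TCF/LEF core. Among 35116 RefSeq windows of the same length, 16.4% held GGCGCC, 38.0% the SMAD box and 11.2% the TCF/LEF core. A match of these letters is a description and not a binding site. Of the other 2 BMP4 windows, chr14:53954489-53954738 held none of the motifs and chr14:53953396-53953645 held 1 SMAD box.

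BMP2 (ENSG00000125845, chromosome 20, 6767664 to 6780280, plus strand) had normalised counts of 214, 250, 380 and 379 in EXT1-/- replicates 1 to 4, against 345, 438, 456 and 500 in WT replicates 1 to 4. The groups overlapped: 2 EXT1-/- libraries were below every WT library, and the other 2 lay above the lowest WT library. The means were 305.8 ± 86.4 in EXT1-/- cells and 434.8 ± 65.3 in WT cells (SD, n = 4 each), which is -0.54 ± 0.21 on the log2 scale (SE; 95% interval -1.01 to -0.07). Its unadjusted p was 0.0284 and its adjusted p 0.0762 (limma), and the exact permutation p was 0.0857. BMP2 did not pass, therefore, but its 95% interval reached from nearly no difference to a fold of 0.498. It passed as lower within the low set (-0.59, adjusted p 0.0261) and when EXT1-/- replicate 3 (adjusted p 0.0454), EXT1-/- replicate 4 (0.0492) or WT replicate 1 (0.0422) was left out. The EXT1-/- libraries did not split by mitochondrial set here, since replicates 1 and 2, the lower pair, come from different sets.

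BMP5, BMP6 and BMP7 form another branch of the family. BMP7 (ENSG00000101144, chromosome 20, 57168748 to 57266629, minus strand), which in the mouse is needed for kidney and eye, had counts of 748, 749, 748 and 936 in EXT1-/- libraries and 511, 545, 578 and 421 in WT libraries. The groups did not overlap, as in 33.5% of all genes, and EXT1-/- replicate 4 stood above its 3 near-identical companions. The means were 795.2 ± 93.8 in EXT1-/- cells and 513.8 ± 67.6 in WT cells (SD, n = 4 each), which is 0.63 ± 0.12 on the log2 scale (SE; limma adjusted p 0.00345). Without EXT1-/- replicate 4 the log2 fold change was 0.55, and within the low set also 0.55 (adjusted p 0.0127). An antisense gene, BMP7-AS1, overlaps BMP7 in the annotation, and the labels name a stranded kit without saying how strand was used in counting.

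BMP5 (ENSG00000112175, chromosome 6, 55753645 to 55875564, minus strand), whose loss in the mouse gives short ears, was low in both groups. It had counts of 63, 70, 59 and 63 in EXT1-/- libraries and 15, 19, 14 and 24 in WT libraries, with no overlap. BMP6 (ENSG00000153162, chromosome 6, 7726797 to 7881422, plus strand), which in the adult liver controls iron balance, had counts of 52, 46, 69 and 76 in EXT1-/- libraries and 18, 15, 10 and 16 in WT libraries. Again the lowest EXT1-/- library was well above the highest WT library. The log2 fold change was 1.80 ± 0.21 (SE; adjusted p 0.000240, limma) for BMP5 and 1.97 ± 0.25 (SE; adjusted p 0.000461, limma) for BMP6. Treating the normalised values as counts, the summed BMP5 count was 255 in EXT1-/- cells and 72 in WT cells, a ratio of 3.54 with an exact 95% interval of 2.72 to 4.67 that covers counting error only. For BMP6 the sums were 243 in EXT1-/- cells and 59 in WT cells, a ratio of 4.12 (3.09 to 5.57). Both genes were below 1 CPM in every WT library, so these values describe the size of a difference whose direction the selection had fixed. The 250 bases before the BMP5 start (RefSeq, GRCh38.p14, chr6:55875591-55875840, minus strand) are shown because their base composition contrasts with that of the BMP4 stretch, with the same motifs searched.
BMP5: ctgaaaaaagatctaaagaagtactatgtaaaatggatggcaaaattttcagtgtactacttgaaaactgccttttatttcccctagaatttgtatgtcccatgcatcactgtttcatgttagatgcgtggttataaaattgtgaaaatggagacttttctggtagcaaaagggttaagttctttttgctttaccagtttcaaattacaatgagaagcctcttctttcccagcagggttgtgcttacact
This AT-rich stretch had a GC content of 35.6% and 1 CpG, against 63.6% and 25 CpGs in the BMP4 stretch printed above, and it held none of the 3 motifs. The BMP6 window (chr6:7725849-7726098, plus strand) had a GC content of 64.4% and likewise held none.

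GDF3 (ENSG00000184344, chromosome 12, 7689782 to 7695776, minus strand) is a ligand of pluripotent cells that is related to Vg1 of the frog and, in some assays, holds back BMP signalling. Its counts were 270, 247, 274 and 299 in EXT1-/- libraries and 310, 281, 237 and 252 in WT libraries. The libraries of the 2 groups were interleaved. The means were 272.5 ± 21.3 in EXT1-/- cells and 270.0 ± 32.3 in WT cells (SD, n = 4 each), a log2 fold change of 0.02 ± 0.10 (SE; adjusted p 0.917, limma). The 95% interval of the fold change ran from 0.86 to 1.19, so a difference of the size seen in BMP4 or BMP7 lay outside it. Its upstream stretch is shown as that of the ligand without a detectable difference (RefSeq, GRCh38.p14, chr12:7695776-7696025, minus strand).
GDF3: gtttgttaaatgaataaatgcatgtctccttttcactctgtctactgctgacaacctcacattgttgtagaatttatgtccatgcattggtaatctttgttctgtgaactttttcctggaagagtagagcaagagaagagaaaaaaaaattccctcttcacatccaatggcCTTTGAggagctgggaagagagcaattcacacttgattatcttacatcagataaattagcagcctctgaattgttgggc
The window had a GC content of 38.4% and no CpG, and it held 1 TCF/LEF core, in capitals, and no SMAD motif.

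GREM1, gremlin 1, binds BMP2, BMP4 and BMP7 and blocks them, and was the one antagonist of the list that could be measured. GREM1 (ENSG00000166923, chromosome 15, 32717974 to 32745107, plus strand) had counts of 44, 42, 43 and 61 in EXT1-/- libraries and 7, 1, 6 and 2 in WT libraries. The gene was thus close to silent in WT cells and just above 1 CPM in each EXT1-/- library, so its direction too was fixed by the selection. The summed count was 190 in EXT1-/- cells and 16 in WT cells, a ratio of 11.9 with an exact 95% interval of 7.13 to 21.2 that covers counting error only. On the log2(value + 1) scale the fold change was 3.48 ± 0.48 (SE), with an adjusted p of 0.000701 (limma). At such low counts the fitted value depends on the pseudocount, and with 10 in place of 1 it was 2.05. The low set alone gave 3.65 and the high set alone 2.72 on the log2 scale; the high set's single WT library had the highest WT count of the gene. A long noncoding gene on the opposite strand, AC090877.2, overlaps GREM1. The 250 bases before the upstream GREM1 start (RefSeq, GRCh38.p14, chr15:32717754-32718003, plus strand) are printed because they hold the most matches among the measured genes.
GREM1: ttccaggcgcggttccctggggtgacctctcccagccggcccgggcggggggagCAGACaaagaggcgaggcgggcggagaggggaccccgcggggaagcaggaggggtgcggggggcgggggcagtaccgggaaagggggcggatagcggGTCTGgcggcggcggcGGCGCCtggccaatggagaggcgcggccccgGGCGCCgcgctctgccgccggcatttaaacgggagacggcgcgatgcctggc
The stretch had a GC content of 76.8% with 32 CpGs and held 2 GGCGCC elements and 2 SMAD boxes, but no TCF/LEF core. The window at the second GREM1 start (chr15:32718234-32718483) held 1 SMAD box. Matching windows were found for 5 of the 7 measured genes, BMP4, BMP5, BMP6, GDF3 and GREM1.

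**Figure D2:**
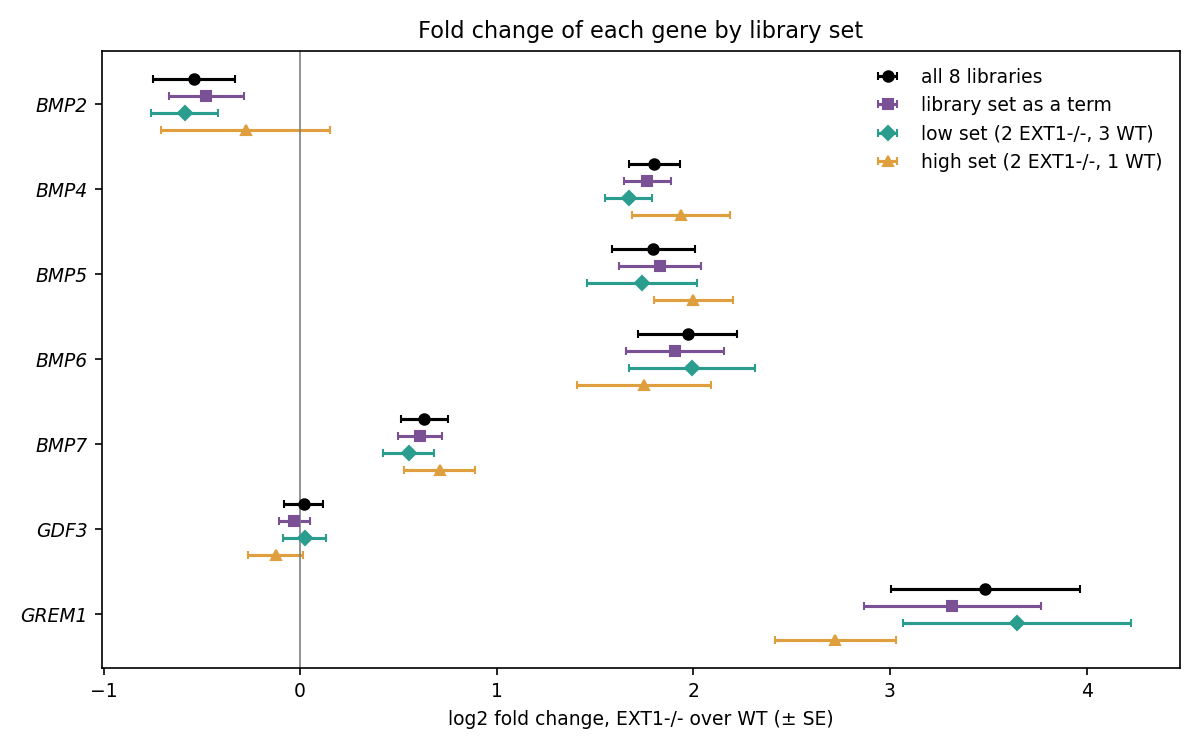
Log2 fold change of EXT1-/- over WT for each measured gene (x axis, ± SE) in all 8 libraries, with the library set as a term, and within the low and the high set. BMP4, BMP5, BMP6, BMP7 and GREM1 lie right of 0 in each case, BMP2 lies left of 0, and GDF3 lies near 0.

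BMP4 and BMP7 pointed the same way in both mitochondrial sets, and so did BMP5, BMP6 and GREM1, whose direction the selection had fixed. With the set as a term in the model, 5 of the 7 genes were again higher and none lower (limma), beside 51.8% called over all genes, 26.2% as higher and 25.6% as lower. The adjusted p of BMP2 was 0.0613 there. Within the low set (2 EXT1-/- and 3 WT libraries) 5 were higher and BMP2 lower, beside 45.0% called over all genes, 20.9% as higher and 24.1% as lower. The high set holds a single WT library, and none of the 7 passed within it, although BMP4, BMP5, BMP6, BMP7 and GREM1 had the same direction as in all 8 libraries. The authors' deposited table gives a log2 fold change of 1.82 for BMP4 (FDR 2.17e-19), 1.83 for BMP5 (7.85e-06), 2.03 for BMP6 (6.22e-06), 0.63 for BMP7 (8.04e-05) and 3.54 for GREM1 (2.59e-08). In the authors' deposited table BMP2 stands at -0.51 with an FDR of 0.0574 and GDF3 at 0.01 with an FDR of 0.970, and 26.2% of all genes have an FDR below 0.05, 12.6% of all genes as higher.

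Levels of different genes were compared per kb of summed exon length. In EXT1-/- cells the order was GDF3 at 220 ± 17.2 normalised counts per kb, BMP7 at 147 ± 17.3, BMP4 at 135 ± 23.2, BMP2 at 84.9 ± 24.0, BMP6 at 21.9 ± 5.06, BMP5 at 16.1 ± 1.16 and GREM1 at 3.25 ± 0.619 (SD, n = 4). In WT cells it was GDF3 at 218 ± 26.1, BMP2 at 121 ± 18.1, BMP7 at 94.8 ± 12.5, BMP4 at 38.2 ± 3.22, BMP6 at 5.31 ± 1.22, BMP5 at 4.55 ± 1.15 and GREM1 at 0.274 ± 0.202 (SD, n = 4). Neighbours whose library values overlapped, and which therefore cannot be ordered, were BMP7 and BMP4 and also BMP6 and BMP5 in EXT1-/- cells, and BMP2 and BMP7 and also BMP6 and BMP5 in WT cells. BMP4 ranked above BMP2 in EXT1-/- cells and below it in WT cells. Exon lengths join all annotated transcripts of a gene, from 1.24 kb in GDF3 to 14.6 kb in GREM1, so the level of a gene with long alternative exons is understated.

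**Figure D3:**
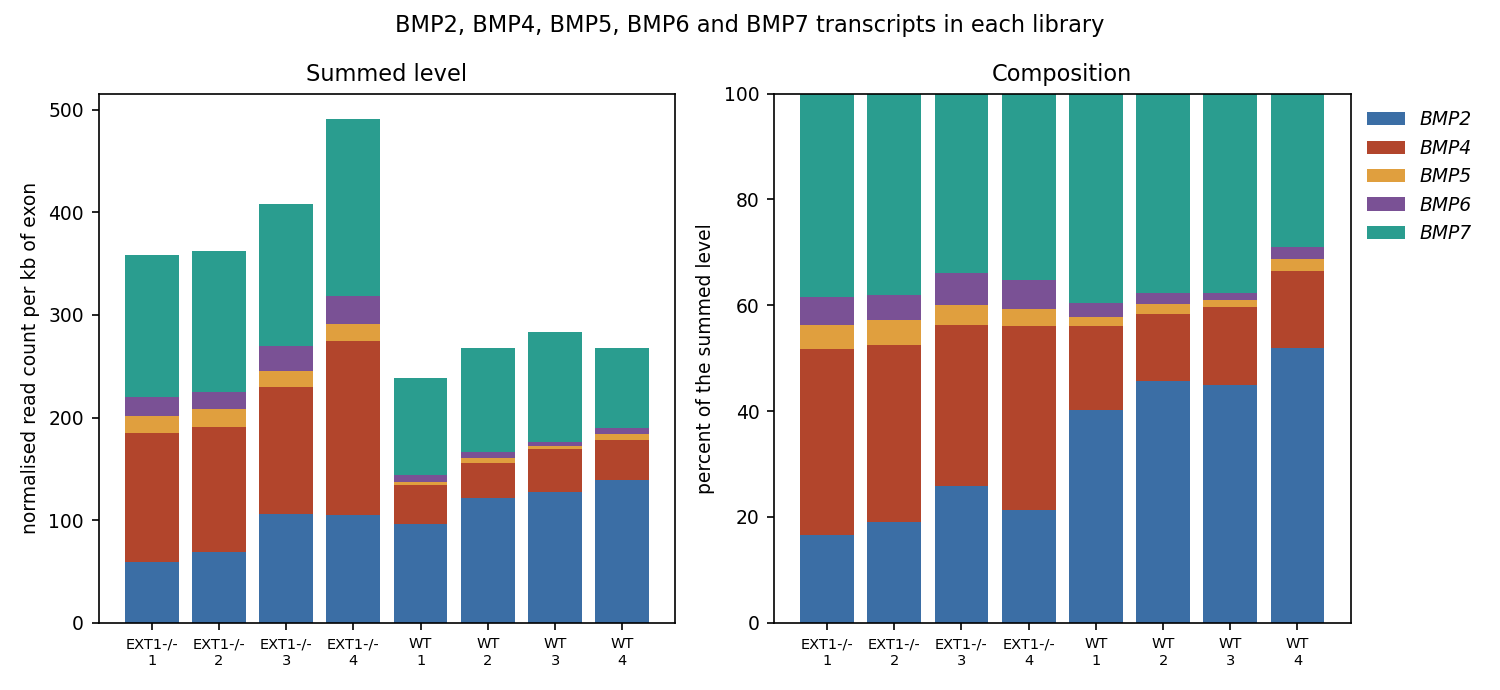
Left, summed level of BMP2, BMP4, BMP5, BMP6 and BMP7 (normalised read count per kb of exon) in each library; right, the percentage each ligand contributes. BMP4 contributes 30.4 to 35.2% in EXT1-/- libraries and 12.8 to 15.9% in WT libraries, while the share of BMP7 overlaps between the groups.

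BMP4 took up more of the summed BMP ligand transcripts in EXT1-/- cells than in WT cells, and BMP2 less. The summed level of BMP2, BMP4, BMP5, BMP6 and BMP7 was 405 ± 61.6 normalised counts per kb in EXT1-/- cells and 264 ± 18.3 in WT cells (SD, n = 4 each). BMP2 made up 20.8 ± 3.97% of it in EXT1-/- cells and 45.7 ± 4.83% in WT cells, and BMP4 33.4 ± 2.15% in EXT1-/- cells and 14.5 ± 1.30% in WT cells. The share of BMP7 was 36.4 ± 2.24% in EXT1-/- cells and 36.0 ± 4.73% in WT cells. BMP5 and BMP6 together stayed a small part, at 4.06 ± 0.741% and 5.36 ± 0.644% in EXT1-/- cells and 1.73 ± 0.426% and 2.04 ± 0.594% in WT cells. The ratio of BMP4 to BMP2, which does not depend on how libraries were scaled, was 2.12, 1.74, 1.17 and 1.61 per kb in EXT1-/- replicates 1 to 4, and 0.396, 0.280, 0.331 and 0.280 in WT replicates 1 to 4. It was above 1 in every EXT1-/- library and below 1 in every WT library. The distance from 1 depends on the exon lengths used: in EXT1-/- replicate 3 the counts before division were 381 for BMP4 and 380 for BMP2. These sums and ratios are descriptions of genes picked with earlier results known, and were not tested.

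**Figure D4:**
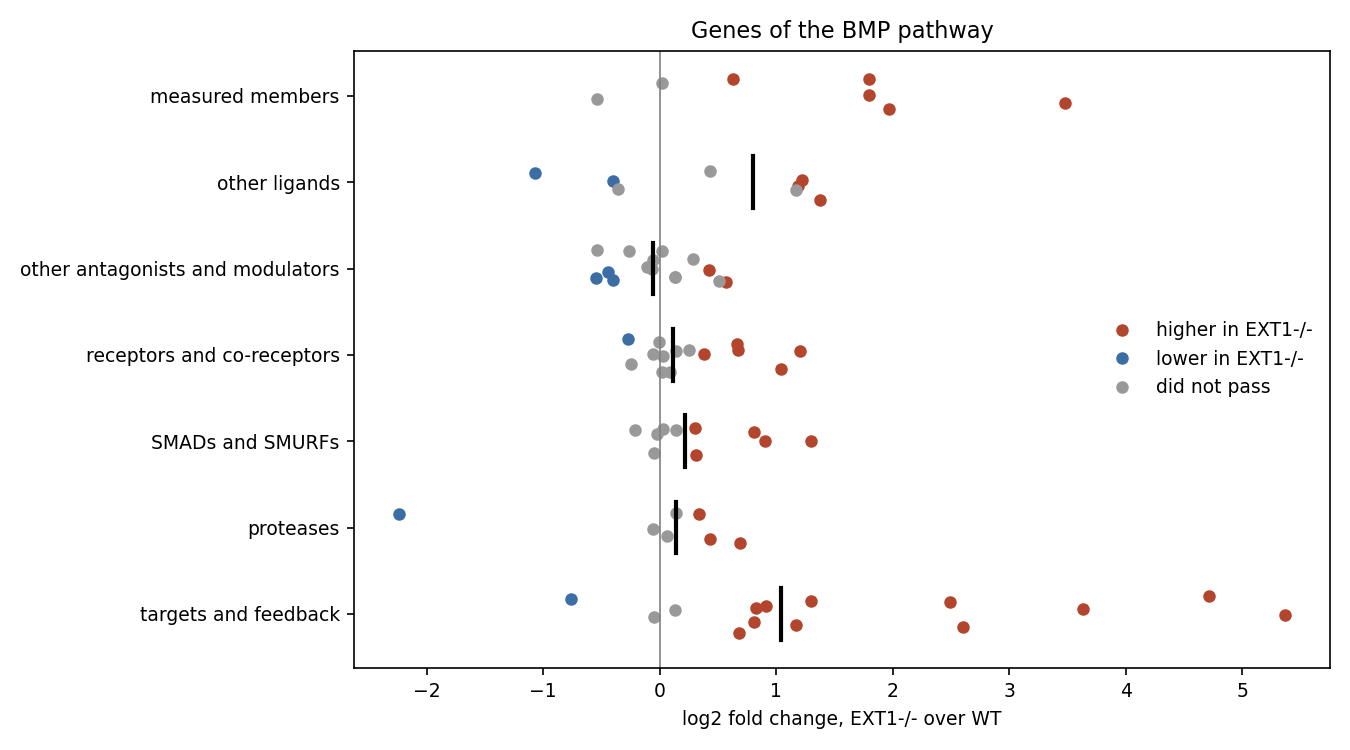
Log2 fold change of EXT1-/- over WT (x axis) of the 7 measured genes and of 6 lists of other BMP pathway genes; each point is a gene, coloured by its call at an adjusted p of 0.05 (limma), its height within a row is arbitrary, and black bars are list medians. The targets and feedback genes have a median of 1.04, and the antagonists and modulators a median of -0.06.

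The rest of the BMP pathway was read from 6 lists with 64 different measured genes, and the test called 27 higher and 8 lower in EXT1-/- cells (limma), beside 15.2% of all genes called higher and 16.8% lower. The 27 include GDF6, TBX3, DLX5 and HAND1, which were below 1 CPM in every WT library and could enter the table only through the EXT1-/- libraries. At 5 of 15 called, the antagonists and modulators lay near the 32.0% of all genes. Over all genes the median log2 fold change was 0.01. Among 8 measured of 22 other ligands of the superfamily, 3 were higher and 2 lower, and 3 did not pass (median 0.80). NODAL, the ligand that patterns the primitive streak, had a log2 fold change of -1.07 ± 0.11 (SE). Its antagonist LEFTY1 was higher by 1.22 ± 0.28 and AMH, anti-Müllerian hormone, by 1.38 ± 0.27 on the same scale. GDF6, a BMP of the dorsal ectoderm, was higher by 1.19 ± 0.22, a direction fixed by the selection, as it was below 1 CPM in every WT library. Of 15 measured among 23 other antagonists and modulators, 2 were higher and 3 lower, and 10 did not pass. Their median was -0.06, and none of those called reached a 2-fold difference. Follistatin, encoded by FST, which binds activins and some BMPs, averaged 32640 ± 5280 normalised counts in EXT1-/- cells and 26630 ± 3070 in WT cells (SD, n = 4 each) with an adjusted p of 0.121 (limma). FST passed as higher in the low set alone (0.40 on the log2 scale, adjusted p 7.86e-05) and with the set as a term (0.38, adjusted p 2.86e-06). FST is named for its abundance, and BMPR1A, BMPR2, SMAD1, SMAD5, FURIN and the ID genes for their role; these were chosen after their values were seen.

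Receptors and the carriers of the signal inside the cell were read next. Of 14 measured among 17 receptors and co-receptors, 5 were higher and 1 lower, and 8 did not pass (median 0.12). RGMA, a BMP co-receptor, was higher by 1.04 ± 0.25, and TMEFF1, a membrane protein with follistatin modules, by 1.20 ± 0.34 (log2 fold change ± SE). TMEFF1 stood at 0.60 in the low set alone. The main type I receptor gene BMPR1A had a log2 fold change of -0.27 ± 0.07 (SE; adjusted p 0.0176, limma), and the type II receptor gene BMPR2 one of -0.06 ± 0.05 (SE; adjusted p 0.404, limma). Among 10 measured SMAD and SMURF genes 5 were higher and none lower, with a median of 0.22. SMAD6, an inhibitory SMAD that BMP signalling induces, was higher by 1.30 ± 0.14 (SE), whereas SMAD1 and SMAD5, which carry the BMP signal, had values of 0.03 ± 0.13 and -0.21 ± 0.14 and did not pass. Of 7 measured processing proteases 3 were higher and 1 was lower, PCSK1, a prohormone convertase, at -2.24 ± 0.13 (log2 fold change ± SE). FURIN, which cleaves BMP precursors, had a value of -0.06 ± 0.14 and did not pass.

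Genes known as BMP targets or as feedback on the pathway were mostly higher. Of 14 measured among 18, 11 were higher and 1 lower, beside 15.2% and 16.8% of all genes, and 2 did not pass. The median was 1.04, and 0.80 within the low set. Of the higher genes, 3 were below 1 CPM in every WT library, TBX3, DLX5 and HAND1, so their direction was fixed by the selection. MSX1, a homeobox gene induced by BMPs, had counts of 5589, 3974, 4011 and 10856 in EXT1-/- libraries and 392, 390, 494 and 536 in WT libraries. EXT1-/- replicate 4 was the highest here too, as for BMP4, BMP7 and GREM1. TBX3 had a log2 fold change of 2.60 ± 0.23 and DLX5 one of 4.71 ± 0.44 (SE), and HAND1 had counts of 63, 42, 40 and 104 in EXT1-/- libraries and 0, 0, 1 and 1 in WT libraries. These 4 genes are also among the markers of neural plate border, amnion or lateral mesoderm read above. The inhibitors of differentiation did not move together: ID1 was higher by 0.68 ± 0.19, ID2 by 0.83 ± 0.06 and ID4 by 0.91 ± 0.26, while ID3 was lower, at -0.76 ± 0.21 (log2 fold change ± SE). The ID3 groups overlapped, since EXT1-/- replicate 4 had a count of 2686 and the WT libraries had 2615 to 3083 (exact permutation p 0.0571). ID3 stood at -1.06 in the low set alone and at -0.42 in the high set alone on the log2 scale.

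By root mean square difference of the centred log2 profiles over the 8 libraries, the genes most like BMP4 among 14157 genes with at least 1 CPM in a group were HES1, at 0.098, and RBM20 and PLXNA2, at 0.13 each. HES1, a transcriptional repressor downstream of Notch, had counts of 873, 779, 748 and 1042 in EXT1-/- libraries and 243, 247, 245 and 236 in WT libraries. Like BMP4, it was highest in EXT1-/- replicate 4 and varied little among WT libraries, the likeness by which it was picked. RBM20, a splicing regulator of heart muscle, had a log2 fold change of 1.76 ± 0.18 (SE), and PLXNA2, a semaphorin receptor, one of 1.61 ± 0.14 (SE).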

How the data were processed

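Total RNA from 4 EXT1-/- and 4 WT libraries of induced H9 cells was sequenced, with a stranded total RNA kit per the labels' protocols. STAR, RSEM and edgeR (no versions) and the build GRCh38.p10 are named, per the submitters' processing notes. The authors deposited 1 table with a normalised signal per library, in whole numbers; these are not raw counts, since the upper quartile lay between 2041.5 and 2137 in all 8 libraries, and they are called normalised read counts. The lowest second-highest value of a gene was 1.00 CPM. It also held 0 columns of other samples, and the authors' log2 fold change and log2 CPM, likelihood ratio score, p-value and FDR, deposited per gene.

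As the values are not counts, log2(value + 1) was fitted with limma 3.58.1 (R 4.3.3, intensity trend, genotype as the only term, all 8 libraries), with Benjamini-Hochberg adjustment over 15811 genes and a threshold of 0.05. Fold changes are on this scale, which understates low genes. The fit was tested on simulated counts without library sets, in which only well expressed genes were changed. That test does not speak for BMP5, BMP6 or GREM1, nor for the mitochondrial sets. Coordinates and summed exon lengths came from GENCODE 29, which matched 15777 genes, and promoter windows from RefSeq (GRCh38.p14). Exact tests used scipy 1.17.1 (Python 3.11.15), and figures were drawn with matplotlib 3.10.9. Library sets were split at the largest gap in the mitochondrial share. Genes and lists were chosen with earlier results of these data known. Named were the listed genes, EXT1, in each pathway list up to 4 genes that passed with at least a 2-fold difference, and the 3 genes most like BMP4; no listed gene was called lower, so no such likeness was sought. Alternatives were other scalings, pseudocounts, filters, precision weights, a replicate block, each library left out, the set as a term and each set alone, the high set being added after the data were seen. With 4 libraries a group, precision is limited by the spread between them and, below about 1 CPM, by counting error.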

Additional observations from a re-analysis of the deposited data

Results flagged for a closer look

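In EXT1-/- replicate 4, 3 of the 7 measured genes stood apart from the other EXT1-/- libraries, with a gap to the nearest library that took up most of the group's range. BMP4 had a normalised count of 523 there against 372 to 389 in the other 3 EXT1-/- libraries, BMP7 936 against 748 to 749, and GREM1 61 against 42 to 44. The gap was 0.887 of the range for BMP4, 0.995 for BMP7 and 0.895 for GREM1, each above the 95% limit of Dixon's test for 4 samples. In all, 14 groups of 4 libraries were examined, and chance flags about 1 in 20. All 3 flags fell in the same library, so they are not independent of each other. Genes outside the list were not examined in this way. The share of all genes flagged in that library is therefore not known, and the flags may not be particular to these genes. EXT1-/- replicate 4 is in the high mitochondrial set. Among EXT1-/- libraries it also had the highest summed count of the neural plate border markers, 17664, of which MSX1 was 10856. Its sums were also the highest of the group for the mesendoderm (35430), amnion and trophectoderm (7061), neuroectoderm (599) and lateral mesoderm markers (3004). Its sum of the pluripotency markers was not. The part of any of these traits in the 3 genes' values was not tested. Without that library the log2 fold change was 1.69 for BMP4, 0.55 for BMP7 and 3.36 for GREM1, and each remained called (limma).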

How the results depend on the processing

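BMP4 and BMP7 were higher and called in 18 of 19 alternatives, with log2 fold changes of 1.67 to 1.94 and 0.54 to 0.71; BMP5 (1.41 to 2.00), BMP6 (1.505 to 2.093) and GREM1 (2.05 to 3.79) in 17 of the 18 that kept them, with a direction fixed by their selection. The exception was in each case the high set alone, where 0 of the 7 genes, 2 of the 64 pathway genes and 122 of all genes passed (limma; at an unadjusted p below 0.05, 5 of the 7), with 1 WT library that is assumed to vary like the others; by construction it has fewer samples. With at least 5 CPM in 4 libraries, 2 of the 4 genes left were called, as BMP5, BMP6 and GREM1 were not tested. Over all genes 3651 of 11735 were called with that filter. With the set as a term 8195 of all genes were called, against 5063; the cause was not tested. BMP2 was below 0 in all 19 alternatives and passed in 5 of them. With one library left out, the called number was 5 to 6 of the 7 genes, 27 to 35 of the 64 pathway genes and 3721 to 6041 of all genes. GDF3 changed sign with upper quartile factors (-0.001), with the set as a term (-0.03), in the high set (-0.125) and within the range with one library left out (-0.042 to 0.086), and never passed. The replicate numbers did not pair the libraries: deviations from the group means of same-numbered libraries correlated by 0.78, 0.44, 0.26 and -0.65, and 2 of 8 libraries correlated best with their own number. With a replicate block 6 of the 7 genes were called, BMP2 as lower (adjusted p 0.0152), 36 of the 64 pathway genes and 4934 of all genes. Depth limits BMP5, BMP6 and GREM1 most, whose WT libraries had at most 24 normalised counts.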
